A study of Mus musculus with 18 samples.

Results

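The comparison described here is that of the C57BL/6J mouse retina 2 days after optic nerve crush against the retina of uninjured C57BL/6J mice. It rests on 6 of the 18 arrays of a study that also profiled C57BL/6J retinas 5 days after crush and the same 3 conditions in DBA/2J mice, with 3 arrays per group. The 6 members were chosen by their labels: 3 arrays labelled C57BL/6J control and 3 labelled C57BL/6J 2 days. All mice were labelled as males of 60 to 90 days of age, and no transgene or drug treatment was part of the labels. The crush group had the optic nerve held for 10 s with a cross-clamp forceps behind the globe, under xylazine and ketamine anesthesia, while the controls were separate, naive mice. Each array held RNA pooled from 2 retinas, and both eyes are named as the source. The Illumina bead array carried 46116 probes, of which 29534 had 1 gene symbol, for 17658 genes. Expression is given in the units of the study: for each array the log2 intensities were set to a mean of 8 and a standard deviation (SD) of 2, so that on these 6 arrays 1 unit was between 0.51 and 0.61 on the log2 scale. A probe was called where the adjusted p of limma, fitted over all 18 arrays, was under 0.03, the false discovery rate the study used. Nothing states that the 3 samples of a group were handled on separate days, and the p-values measure only the spread between these samples.

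Retinal ganglion cells are the only neurons whose axons leave the eye, and a crush of the optic nerve cuts them off from their targets while the rest of the retina is not touched. In rodents the injured cells are known to start stress and growth-associated programmes before they die, glia become reactive, and microglia multiply and take up debris. Ganglion cells are a small share of retinal RNA, most of which comes from photoreceptors, so that in whole retina fewer cells of a type and less RNA per cell cannot be told apart.

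Several arrays stood apart, and they are described before the results. At 183 probes the C57BL/6J and DBA/2J controls did not overlap and differed by more than 2 units. On a scale where 0 is the C57BL/6J control mean and 1 the DBA/2J control mean, the array labelled C57BL/6J 2 days replicate 3 had a median position of 0.89, against 0.03 and 0.04 for the other two 2-day arrays. The array labelled DBA/2J 2 days replicate 1 had a median of 0.07. The first of these read 17.75 units for Glo1, the glyoxalase gene, and 14.64 for Alad, a heme synthesis gene, where the C57BL/6J controls read 15.55 to 15.86 and 11.83 to 12.98 and the DBA/2J controls 17.37 to 17.88 and 14.54 to 15.05. The main differences and list medians are therefore given with and without that array. The array labelled C57BL/6J 2 days replicate 1 stood apart in another way: 227 probes lay more than 1.5 units below all 17 other arrays, where no other array had more than 6 such probes. Their median was 7.28 units in that array and 11.10 over the others. Its correlations with the other 5 arrays of the comparison, over all probes, lay between 0.932 and 0.967, and those among the other 5 between 0.953 and 0.985. None of the 9 called probes was among the 227. That says little, because a low value in 1 crush array widens the spread and hinders a call. Among the controls, replicate 1 read 11.27 units for Xist and 7.02 for the Y-linked Eif2s3y, against 7.20 to 7.55 and 13.05 to 13.15 in the other 2, although the label is male. Control replicate 3 was high in lens transcripts, as described with those genes.

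**Figure D1:**
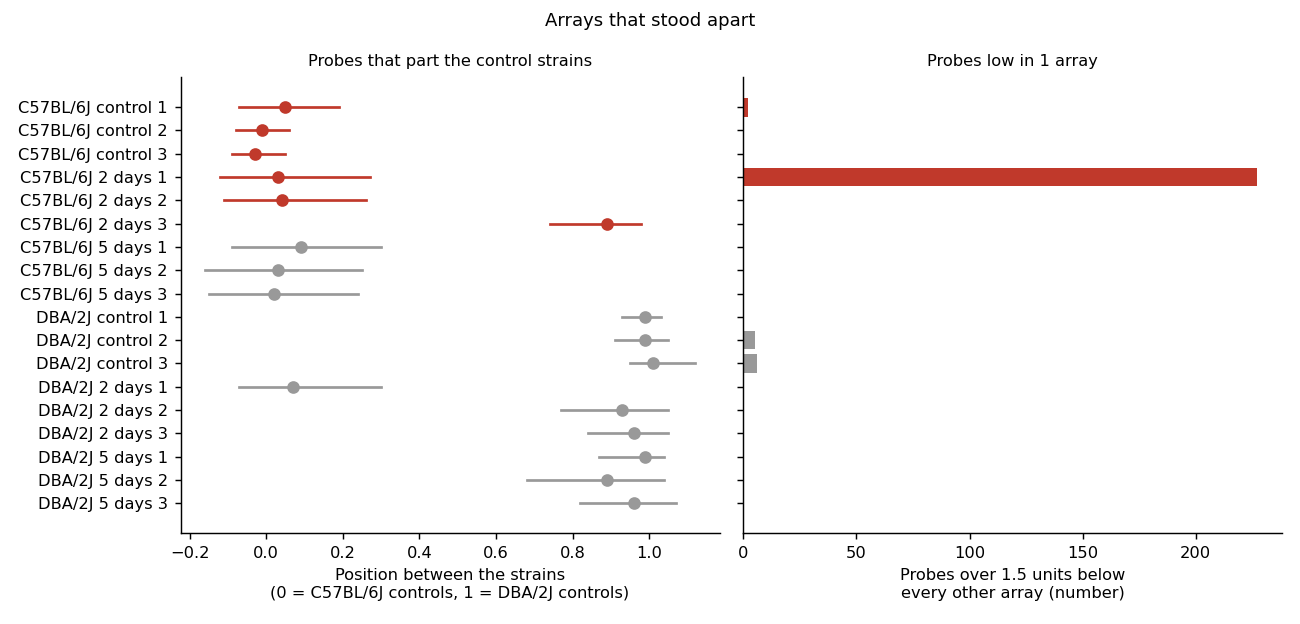
Left, the median position of each of the 18 arrays between the control strains over 183 probes (0, C57BL/6J controls; 1, DBA/2J controls; bars span the lower to the upper quartile of the probes); the 6 arrays compared here are red. Right, the number of probes lying over 1.5 units below every other array. The third 2-day array sits at 0.89 on the left and the first has 227 such probes on the right.

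The regions before the start sites of the genes that the results turn on are shown next, because 4 of the called genes are histone genes and the others are the called Mmp12 and a pair of stress response genes described below. They are 250 bases long, from RefSeq on build GRCm38.p6, and are written 5′ to 3′ on the strand of the gene. Capitals mark the letters of a motif searched on both strands. In the histone genes these are CCAAT, or ATTGG for the other strand. Of 58 histone genes of the list below that had such a window, 47 (81.0%) held the motif, against 37.5% of all 27025 genes with a window, and 39 held it at least 2 times, against 3110 of the 27025. Counted by window, it was in 33.8% of all 32851.
H3c2, chr13:23752095-23752344, plus strand: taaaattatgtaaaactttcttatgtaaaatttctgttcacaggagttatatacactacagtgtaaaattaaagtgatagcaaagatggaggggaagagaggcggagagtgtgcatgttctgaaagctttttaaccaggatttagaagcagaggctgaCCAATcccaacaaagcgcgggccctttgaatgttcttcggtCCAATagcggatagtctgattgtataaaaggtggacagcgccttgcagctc
H2ac11, chr13:22042950-22043199, minus strand: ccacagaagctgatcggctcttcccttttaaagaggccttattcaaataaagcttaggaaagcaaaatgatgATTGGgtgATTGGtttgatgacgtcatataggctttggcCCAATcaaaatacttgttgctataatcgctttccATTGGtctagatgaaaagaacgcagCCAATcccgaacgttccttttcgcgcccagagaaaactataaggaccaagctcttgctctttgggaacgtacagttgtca
H2ac13, chr13:21716162-21716411, plus strand: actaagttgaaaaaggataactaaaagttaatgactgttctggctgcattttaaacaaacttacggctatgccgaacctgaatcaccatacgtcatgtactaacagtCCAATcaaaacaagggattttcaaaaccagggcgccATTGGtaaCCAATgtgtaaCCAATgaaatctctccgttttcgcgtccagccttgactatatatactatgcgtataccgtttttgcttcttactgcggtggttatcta
H2ac20, chr3:96220881-96221130, minus strand: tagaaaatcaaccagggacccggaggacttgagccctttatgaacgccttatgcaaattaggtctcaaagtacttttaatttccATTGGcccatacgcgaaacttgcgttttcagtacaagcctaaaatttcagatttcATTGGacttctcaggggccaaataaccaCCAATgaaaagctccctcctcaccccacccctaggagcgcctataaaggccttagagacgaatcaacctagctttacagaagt
In Chac1 and Atf3, targets of the integrated stress response, the capitals mark TGATGCAA, here read as TTGCATCA, the composite element that ATF4 and C/EBP proteins are known to bind. It was in 0.791% of all windows.
Chac1, chr2:119350992-119351241, plus strand: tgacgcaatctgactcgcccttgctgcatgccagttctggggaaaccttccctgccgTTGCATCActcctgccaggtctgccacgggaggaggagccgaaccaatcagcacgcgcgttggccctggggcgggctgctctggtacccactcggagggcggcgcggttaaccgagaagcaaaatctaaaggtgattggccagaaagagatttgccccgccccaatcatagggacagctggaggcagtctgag
Atf3, chr1:191183334-191183583, minus strand: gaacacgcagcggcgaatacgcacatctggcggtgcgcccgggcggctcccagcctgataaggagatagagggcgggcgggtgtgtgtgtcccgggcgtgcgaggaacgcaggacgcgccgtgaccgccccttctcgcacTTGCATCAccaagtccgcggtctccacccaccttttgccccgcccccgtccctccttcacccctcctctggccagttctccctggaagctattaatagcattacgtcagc
For Mmp12, a macrophage elastase gene, the motif was TGANTCA, the letters of an AP-1 element, which were in 6.75% of all windows. The gene has 2 listed starts, and the motif was found before the one shown and not before the other. Only 1 motif was marked in each window, and matches of the other motifs stand unmarked, such as CCAAT in Chac1 and TGAATCA in H2ac13. A match is a description only.
Mmp12, chr9:7347124-7347373, plus strand: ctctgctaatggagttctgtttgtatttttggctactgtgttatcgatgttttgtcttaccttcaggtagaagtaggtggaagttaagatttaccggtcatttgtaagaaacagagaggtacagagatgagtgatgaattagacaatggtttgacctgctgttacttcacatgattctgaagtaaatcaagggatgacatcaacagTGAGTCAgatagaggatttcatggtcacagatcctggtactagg

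Of the 46116 probes, 9 (0.0195%) were called 2 days after crush, 4 higher (0.00867%) and 5 lower (0.0108%), and all 9 had a gene symbol. At an unadjusted p under 0.05 there were 3446 probes (7.47%). The genes that rose were Mmp12, Zc3h6, Ghitm and Nfat5. Those that fell were the connective tissue growth factor gene Ccn2 and the core histone genes H2ac11, H2ac13, H2ac20 and H3c2. With replicate number as a block 14 probes were called, and 8 of the 9 were among them. The count is not stable: leaving out control replicate 2, control replicate 3 or 2 days replicate 2 left 0 called probes, and without control replicate 1 there were 4. Without 2 days replicate 1 the count was 23, with 8 of the 9 among them. Without 2 days replicate 3, the array that reads as DBA/2J, 2 probes were called, for Mmp12 and Sox11. On all 18 arrays without that one and its DBA/2J counterpart there were 10 called probes, of which 5 were among the 9. SAM, the test the study used, was recomputed here. This run called 135 probes (0.293%), 39 higher and 96 lower, and all 9 were among them. It is not the count that the study reported.

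**Figure D2:**
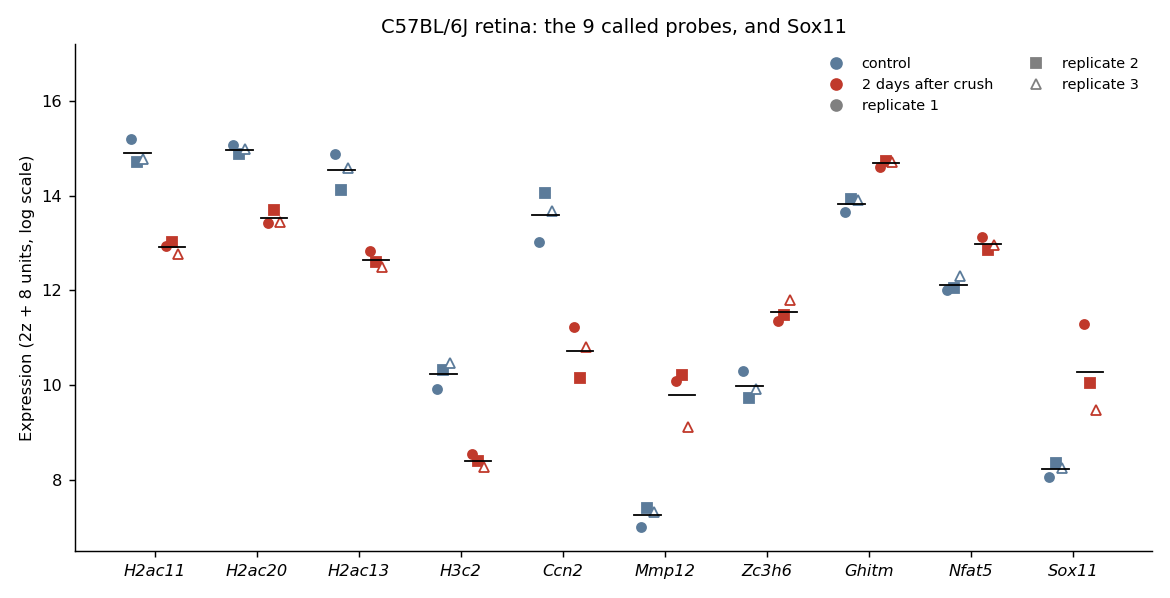
Expression in units (log scale) of the 9 called probes and of Sox11 in the 3 control arrays (blue) and the 3 arrays taken 2 days after crush (red); shapes mark replicates and lines are means. In none of the 10 genes did the 2 groups overlap, and the smallest separations are those of Nfat5 and Ghitm.

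Histone genes were 4 of the 9. They encode the proteins that package DNA, lie in clusters on several chromosomes, and are known mainly for their transcription in dividing cells, although the adult retina holds few of those. H2ac11 read 15.19, 14.71 and 14.78 units in the controls and 12.94, 13.01 and 12.77 units 2 days after crush. It fell by 1.99 units ± 0.23 (standard error of the fit, adjusted p = 0.00833 in limma, 0.00342 to 0.176 over the alternatives), which was 2.13-fold after quantile normalization. H3c2 read 9.91, 10.32 and 10.47 units in the controls and 8.55, 8.39 and 8.27 after crush. Its difference was -1.83 ± 0.21 units (limma adjusted p = 0.00833, 0.0017 to 0.178 over the alternatives). H2ac20 lay between 14.88 and 15.06 units in the controls and between 13.43 and 13.70 after crush, a difference of -1.45 ± 0.18 units (limma adjusted p = 0.00833). H2ac13 lay between 14.12 and 14.88 and then between 12.50 and 12.82 units, a difference of -1.89 ± 0.25 (limma adjusted p = 0.00958), and a second, brighter probe for it had a difference of -1.65 (limma adjusted p = 0.061). In each of the 4 genes the 3 crush arrays were close to each other and all lay below the controls. Without 2 days replicate 3 the differences were -1.92, -1.76, -1.41 and -1.82 units for H2ac11, H3c2, H2ac20 and H2ac13. Their limma adjusted p-values of 0.0475, 0.0475, 0.0502 and 0.0762 missed the threshold. On the 16 arrays, without that one and its DBA/2J counterpart, the limma adjusted p-values were 0.0201, 0.0231, 0.0231 and 0.0495, so that only H2ac13 missed it.

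The rest of the family is given by its counts. The list held 62 replicative and linker histone genes, each represented by its brightest probe. Of these brightest probes 3 were called, all lower, since the called probe of H2ac13 was not its brightest, beside 0.0108% of all probes called lower, and none was called higher. 34 had an unadjusted p under 0.05 and were lower, against 4.17% of all probes, and none was higher, against 3.3%. In 31 of the 62 all 3 crush arrays lay below all 3 controls, against 6.51% of all probes, and in none did they lie above. SAM called 13. The median difference over the 62 was -0.61 units, and it was -0.38 without 2 days replicate 1 and -0.65 without 2 days replicate 3. The mean level over the 62 genes was 10.56, 10.66 and 10.78 units in the controls and 9.77, 10.00 and 10.08 units after crush, so the groups did not overlap. The classes were unlike. The median difference was -1.06 over 16 H2A genes, -0.93 over 15 H2B genes, -0.48 over 11 H3 genes, -0.46 over 11 H4 genes and -0.09 over 9 genes of the linker histone H1. Of the genes that were not called, H3c6 had a difference of -1.88 ± 0.38 units, H3c15 of -1.71 ± 0.34, H2bc21 of -1.52 ± 0.26 and H2bc6 of -1.34 ± 0.21. H2bc6 was called without 2 days replicate 1 and H2bc21 with the replicate block. Genes of one class are near copies of each other, so a probe may read several of them, and the members are not independent. Genes of the cell cycle did not show such a shift: over 21 of them the median difference was 0.01 units, 1 was higher at an unadjusted p under 0.05 and none lower.

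**Figure D3:**
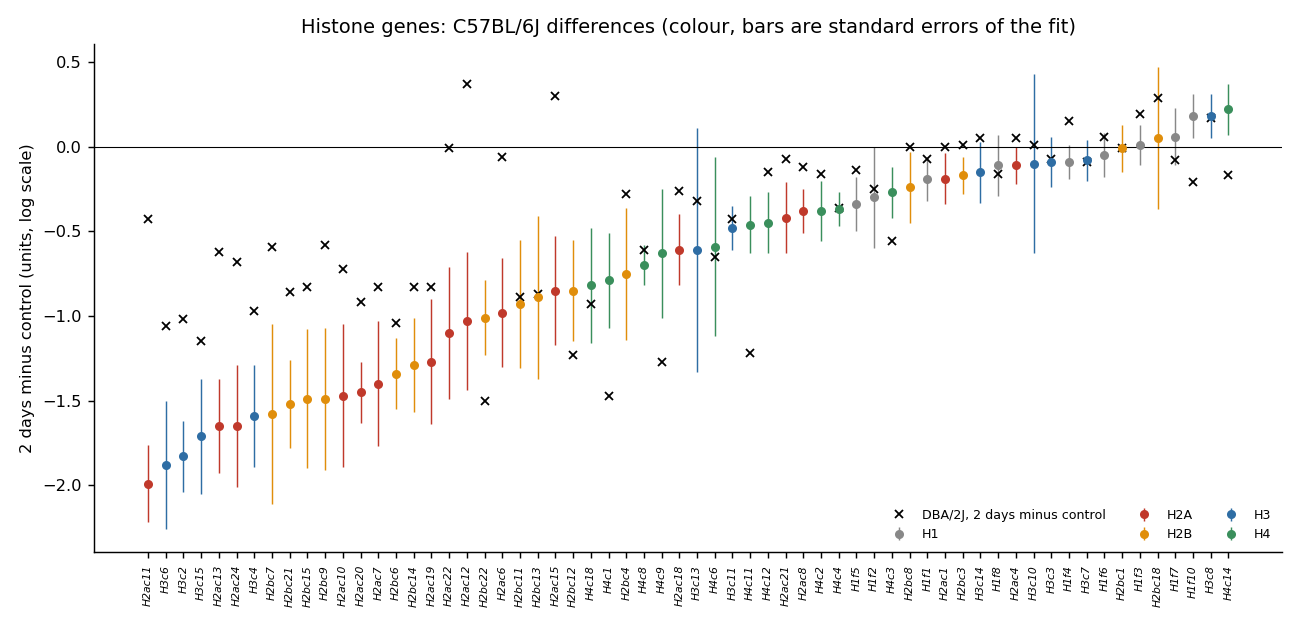
Difference between 2 days after crush and control (units, log scale) for 62 histone genes in C57BL/6J, sorted, with the standard error of the fit as a bar and colour for the histone class; crosses are the same difference in DBA/2J, from other controls. The H2A and H3 genes reach -1.99 and -1.88 units on the left, the H2B genes reach -1.58, and the H1 genes lie near 0 on the right.

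Ccn2, a secreted matricellular protein gene that is induced by YAP, SRF and TGF-β signalling, had the largest fall of the called genes. The controls read 13.02, 14.05 and 13.68 units and the crush arrays 11.22, 10.15 and 10.80 units. The difference of -2.86 ± 0.36 units (limma adjusted p = 0.00833, 0.00342 to 0.245 over the alternatives) was 3.04-fold after quantile normalization. It was -2.90 units without 2 days replicate 3, with a limma adjusted p of 0.0475. On the 16 arrays, without that one and its DBA/2J counterpart, the limma adjusted p was 0.0246. Of 12 measured CCN genes and YAP or SRF targets no other was called, their median difference was -0.15 units, and Ccn1, the closest relative, lay between 7.39 and 7.48 units in the controls and between 7.12 and 7.34 after crush, without overlap but near the floor of the array. The C57BL/6J controls were the group that stood out at this gene. They lay between 13.02 and 14.05 units, while the other 15 arrays of the study, DBA/2J controls included, lay between 10.00 and 11.33 units. The same held for H2ac11, where the 15 other arrays reached at most 13.93 units, and for H2ac13, H2ac20 and H3c2. In Zc3h6, Nfat5 and Sox11 the C57BL/6J controls lay below all 15 other arrays (0.408% of all probes did). Zc3h6 lay between 9.72 and 10.30 units in these controls and between 10.60 and 11.96 units in the other arrays. In Ghitm and Mmp12 the controls overlapped the other arrays. In 8 of the 62 histone genes the 3 C57BL/6J controls lay above all 15 other arrays, against 0.466% of all probes.

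Zc3h6, Ghitm and Nfat5 were the other genes that rose. Zc3h6 encodes a zinc finger protein, and its called probe read 10.30, 9.72 and 9.92 units in the controls and 11.35, 11.47 and 11.80 units after crush, a difference of 1.56 ± 0.20 (limma adjusted p = 0.00893, 0.00787 to 0.25 over the alternatives). Ghitm, a gene for a protein of the mitochondrial inner membrane, read 13.65, 13.92 and 13.90 units and then 14.61, 14.73 and 14.70 units. Its difference was 0.86 ± 0.12 units (limma adjusted p = 0.0181, 0.0184 to 0.428 over the alternatives). Nfat5, a transcription factor of the response to osmotic stress, read at most 12.30 units in the controls and 13.13, 12.85 and 12.95 units after crush, also a difference of 0.86 ± 0.12 (limma adjusted p = 0.0181). The spread within each group was small in these genes and the groups did not overlap. The 2 dimmer probes of Zc3h6 had differences of 0.04 and 0.29 units and the 2 dimmer probes of Nfat5 of -0.02 and 0.10. Without 2 days replicate 3 the differences were 1.43, 0.85 and 0.88 units, with limma adjusted p-values of 0.0705, 0.104 and 0.0915. On the 16 arrays, without that one and its DBA/2J counterpart, the limma adjusted p-values were 0.0813, 0.102 and 0.109. Nfat5 was not called with the replicate block, where its adjusted p was 0.0402.

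Mmp12, the elastase that macrophages and microglia secrete, had the largest rise of the called genes. Its controls were near the floor of the array at 7.01, 7.41 and 7.32 units, and the crush arrays read 10.09, 10.21 and 9.11 units. The difference was 2.55 ± 0.31 units (limma adjusted p = 0.00833), or 2.75-fold after quantile normalization. It was 2.90 units without 2 days replicate 3, with an adjusted p of 0.00476, and the adjusted p ranged from 0.000938 to 0.226 over the alternatives. A second, dim probe for the gene had a difference of -0.07. None of the other 22 measured metalloproteinases and inhibitors was called. Mmp14, a membrane-bound activator of other metalloproteinases, lay between 8.09 and 8.62 units in the controls and between 8.67 and 9.15 after crush, and its difference was 0.48 ± 0.22 units. Timp3, an inhibitor bound to the matrix, had a difference of -0.66 ± 0.25 units, which was -0.41 without 2 days replicate 3.

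Of the microglial genes Mmp12 alone was called. Among 19 measured members of the list 5 lay above all controls in all 3 crush arrays (5.39% of all probes did) and none lay below. At an unadjusted p under 0.05 in limma 3 were higher, against 3.3% of all probes, and 1 was lower, against 4.17%. The median difference was 0.17 units, or 0.23 without 2 days replicate 3. Laptm5, a lysosomal protein of leukocytes, read 9.40, 8.58 and 9.10 units in the controls and 10.22, 10.19 and 9.47 units after crush, a difference of 0.94 ± 0.33 (limma adjusted p = 0.499). Ly86, which partners a toll-like receptor homologue on myeloid cells, read 7.61, 7.55 and 7.51 and then 8.31, 8.40 and 7.88 units, a difference of 0.64 ± 0.30. 2 days replicate 3 was the lowest crush array in both genes, and without it the differences were 1.18 and 0.80 units. Cx3cr1 and Aif1, both standard markers of microglia, had differences of 0.18 and 0.34 units. Markers of other blood leukocytes were near background. Over 11 of them the median difference was 0.03 units, and the neutrophil gene S100a8, with 6.22, 6.67 and 6.62 units in the controls and 6.99, 7.73 and 6.61 after crush, overlapped between the groups. Complement genes did not separate: of 14 measured none lay above or below the controls in all 3 arrays, and C1qc read 8.64, 7.45 and 6.65 units after crush against 7.04 to 7.35.

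Genes of the response of neurons to axon injury included Sox11, a transcription factor that promotes axon growth, whose adjusted p was just outside the threshold. Sox11 read 8.06, 8.36 and 8.24 units in the controls and 11.29, 10.05 and 9.47 units after crush. The difference was 2.05 ± 0.32 units (limma adjusted p = 0.045). It was called without 2 days replicate 3 (2.45 units, adjusted p = 0.0098), without 2 days replicate 1 (1.54 units, adjusted p = 0.0124), with the replicate block (adjusted p = 0.0238) and after quantile normalization, and its adjusted p reached 0.517 at the other end of the alternatives. A second probe for Sox11 differed by 1.42 units, and 2 dim probes by 0.55 and 0.10. None of the 23 measured genes of axon injury and regeneration was called. 5 lay above the controls in all 3 arrays (5.39% of all probes did) and 1 below (6.51%), and the median difference was 0.10 units, or 0.34 without 2 days replicate 3.

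Atf3, a stress-induced transcription factor, read 7.17, 7.25 and 7.21 units in the controls and 9.98, 8.16 and 7.67 units after crush, a difference of 1.39 ± 0.44 (limma adjusted p = 0.406). Tnfrsf12a, a TNF receptor family member of injured tissue, read 8.49, 8.49 and 8.40 units and then 10.58, 9.25 and 8.96 units. Ecel1, a peptidase gene known from injured neurons, read 7.08, 6.87 and 6.96 units and then 9.60, 7.69 and 7.28 units. In these 3 genes and in Sox11 the control arrays were close to each other, whereas the crush arrays were spread out. 2 days replicate 1 was the highest and replicate 3 the lowest in each. Without replicate 1 the differences were 0.70 units for Atf3, 0.64 for Tnfrsf12a and 0.52 for Ecel1, and without replicate 3 they were 1.86, 1.45 and 1.68 units. Gap43, a growth cone protein, did not share that order: it read 11.35, 11.97 and 12.20 units in the controls and 12.79, 13.19 and 12.73 units after crush, a difference of 1.06 ± 0.25 (limma adjusted p = 0.184), or 1.15 without 2 days replicate 3.

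The integrated stress response, in which ATF4 turns on genes of amino acid supply when translation is held back, had a median difference of 0.24 units over 19 genes, which was 0.16 without 2 days replicate 1 and 0.31 without replicate 3. 5 of its members lay above the controls in all 3 arrays, against 5.39% of all probes, and none lay below. 4 had an unadjusted p under 0.05 and were higher, against 3.3% of all probes, and none was called. Chac1, which degrades glutathione, read 9.23, 9.16 and 9.18 units in the controls and 12.39, 11.32 and 10.16 units after crush. Its difference was 2.10 ± 0.44 units (limma adjusted p = 0.125), and it was called on the 16 arrays without the 2 that read as the other strain (2.67 units, adjusted p = 0.0231). Atf5, another transcription factor of the response, read 8.81, 8.75 and 9.19 units and then 9.77, 9.87 and 9.72 units, a difference of 0.87 ± 0.17 (limma adjusted p = 0.116), or 0.91 without 2 days replicate 3. Psat1, a serine synthesis enzyme, had a difference of 0.92 ± 0.32 units, which was 0.56 without 2 days replicate 1, and a second probe for it had a difference of -0.36. The regulators themselves were not higher throughout: Ddit3 had a difference of 0.66 units, and Atf4 and Nupr1, whose spread was wide, of -1.59 and -1.38 units, with unadjusted p-values of 0.181 and 0.225 in limma. Among 21 p53 targets and apoptosis genes none was called, and Cdkn1a, a cell cycle inhibitor, had a difference of 0.67 ± 0.32 units, or 0.35 without 2 days replicate 1 and 0.97 without replicate 3. The 23 immediate early genes had a median difference of -0.02 units. Egr1, an activity-induced transcription factor, read 12.08, 12.36 and 12.54 units in the controls and 13.88, 12.76 and 11.96 units after crush, so the groups overlapped.

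**Figure D4:**
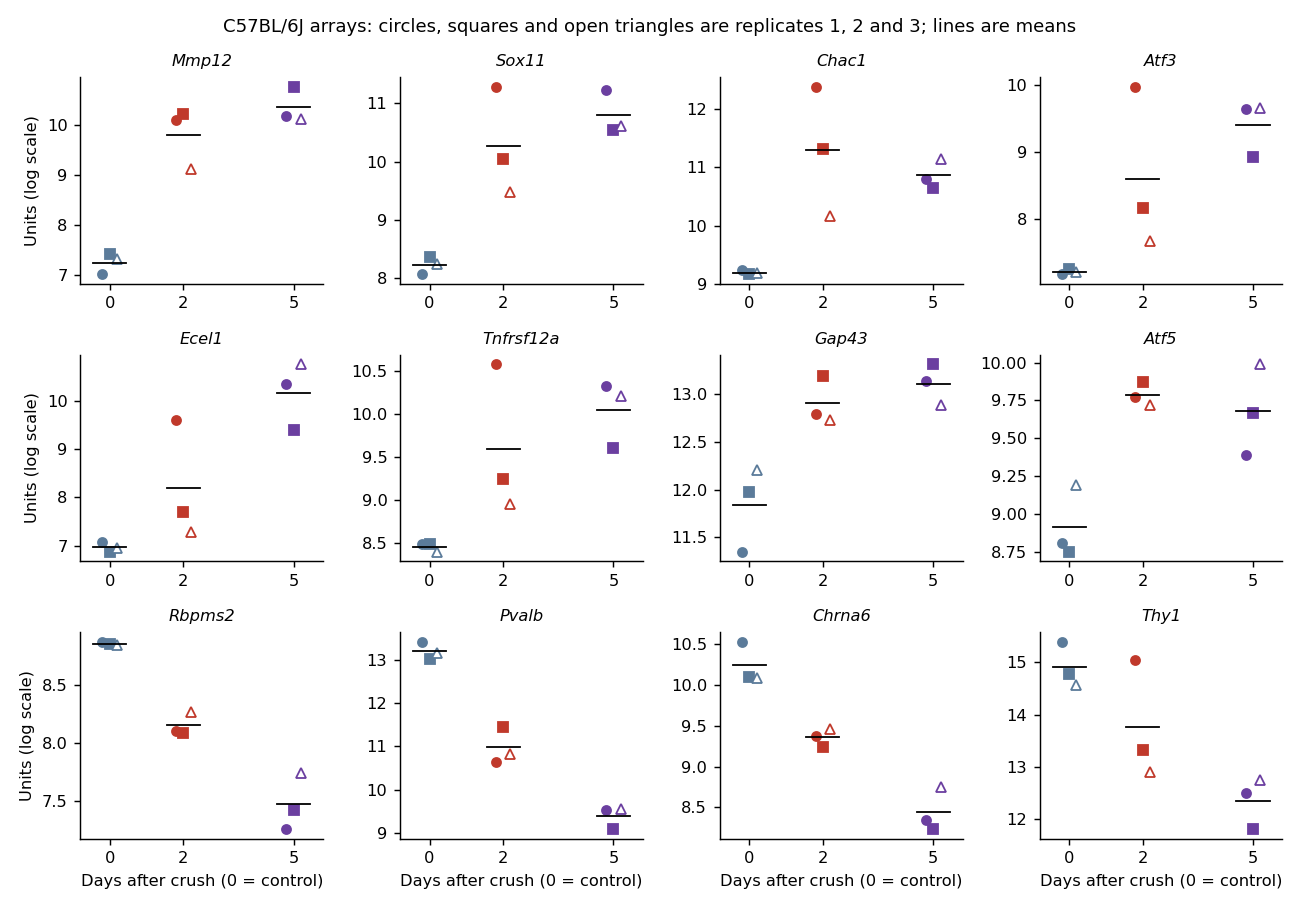
Expression (units, log scale) of 12 genes in the 9 C57BL/6J arrays: control at 0, then 2 and 5 days after crush; shapes mark replicates and lines are means. At 2 days the replicates of Sox11, Chac1, Atf3, Ecel1 and Tnfrsf12a are spread out, from 10.16 to 12.39 units in Chac1, while Rbpms2 and Chrna6 are tight and below the controls.

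None of 24 measured ganglion cell markers was called. 7 lay below all controls in all 3 crush arrays, against 6.51% of all probes, and none lay above. 9 had an unadjusted p under 0.05 and were lower, against 4.17% of all probes, and 0 were higher. The median difference was -0.17 units with and without 2 days replicate 3. Pvalb, a calcium buffer of several ganglion cell types and of some amacrine cells, had the largest difference, -2.22 ± 0.39 units (limma adjusted p = 0.0613). It read 13.42, 13.01 and 13.15 units in the controls and 10.64, 11.45 and 10.83 after crush. Rbpms2, an RNA-binding protein of ganglion cells, had the tightest values: 8.87, 8.85 and 8.84 units in the controls and 8.10, 8.09 and 8.27 after crush, a difference of -0.70 ± 0.12 (limma adjusted p = 0.0613). Chrna6, a nicotinic receptor subunit, read 10.53, 10.10 and 10.09 units and then 9.37, 9.24 and 9.46 units, a difference of -0.88 ± 0.24. These 3 genes were called by SAM. Without 2 days replicate 3 their differences were -2.15, -0.76 and -0.93 units.

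Thy1, the surface glycoprotein most used as a ganglion cell marker, was not uniform. It read 15.39, 14.77 and 14.56 units in the controls and 15.04, 13.32 and 12.91 units after crush. 2 days replicate 1 was within the controls, and the difference of -1.15 ± 0.44 units was -1.79 without it and -0.73 without 2 days replicate 3, the lowest. Chrnb3, the partner subunit of Chrna6, also overlapped, at 10.12 units in 2 days replicate 1 against 10.00 in the lowest control, with a difference of -1.05 ± 0.36, or -0.82 without 2 days replicate 3. The neurofilament genes Nefh and Nefm had differences of -0.91 ± 0.37 and -0.80 ± 0.34 units and did not overlap. Nefm was at -0.44 without 2 days replicate 1, and a second probe for it at 0.09, and without replicate 3 the differences were -0.76 and -0.86. Of 17 neuron-wide genes of transmitter release 4 lay below the controls in all 3 arrays (6.51% of all probes did), none lay above and none was called. Their median difference was -0.20 units, or -0.30 without 2 days replicate 3, and quantile normalization gave -0.07 (log2). Vamp1, a synaptic vesicle protein, had a difference of -0.84 ± 0.17 units (limma adjusted p = 0.125) and Cplx1, a complexin, of -0.94 ± 0.35. Leaving out 2 days replicate 3 gave -0.78 and -0.94.

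Other neurons gave few differences. Of 13 amacrine genes Pax6, a transcription factor of amacrine and ganglion cells, differed by -1.41 ± 0.26 units (limma adjusted p = 0.0808), from 15.58, 15.58 and 15.17 units to 14.72, 13.54 and 13.83. It was called without 2 days replicate 1 and was -1.32 units without replicate 3, but 2 other probes for it differed by 0.45 and 0.15. Gad1, which makes GABA, read 15.70 to 15.87 units in the controls and 15.91 to 16.87 after crush. Bipolar and horizontal cell lists held 12 and 5 measured genes, with medians of 0.11 and -0.05 units and none at an unadjusted p under 0.05. Among 21 rod genes the median was -0.08 units, but its sign depended on single arrays and on the scaling: it was 0.40 without 2 days replicate 1, -0.35 without replicate 3 and 0.28 on the log2 scale after quantile normalization. Gucy2e, a photoreceptor guanylate cyclase, had a difference of -1.35 ± 0.30 units (limma adjusted p = 0.159) and was called by SAM. Rcvrn, the photoreceptor calcium sensor recoverin, read 13.73, 14.07 and 14.03 units in the controls and 16.48, 14.25 and 15.39 units after crush, a difference of 1.43 ± 0.44, or 0.88 without 2 days replicate 1.

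Chaperone genes had a median difference of -0.49 units over 19 genes of protein folding and oxidative stress, which was -0.21 without control replicate 3 and -0.38 without 2 days replicate 3. 4 lay below the controls in all 3 arrays, against 6.51% of all probes, none lay above, and none was called. Xbp1, the transcription factor of the unfolded protein response, read 14.14, 14.79 and 14.99 units in the controls and 13.36, 13.55 and 13.40 units after crush, a difference of -1.20 ± 0.21 (limma adjusted p = 0.0613). It was called without control replicate 1. Dnajb1, an Hsp40 co-chaperone, read 15.28, 15.18 and 15.31 and then 14.11, 13.99 and 14.02 units, a difference of -1.22 ± 0.28 (limma adjusted p = 0.183). Hsph1, an Hsp110 chaperone, read 12.68, 13.55 and 13.73 and then 11.72, 11.97 and 11.53 units, a difference of -1.58 ± 0.37. All 3 were called by SAM, and without 2 days replicate 3 their differences were -1.19, -1.21 and -1.47 units. The ribosomal protein genes had a median of -0.22 units over 68 genes, which was -0.12 without 2 days replicate 1 and -0.36 without replicate 3, and 10 lay below the controls in all 3 arrays (6.51% of all probes did). After quantile normalization that median was 0 on the log2 scale, whereas it was -0.35 for the histones and -0.27 for the chaperones.

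Reactive gliosis was not detectable as a group at this time. Over 21 genes the median difference was 0.03 units, and none was called. Gfap, the intermediate filament of reactive Müller cells and astrocytes, read 7.36, 7.44 and 7.48 units in the controls and 9.69, 7.61 and 7.86 units after crush. All 3 crush arrays were above the controls, but the difference of 0.96 ± 0.59 units was 0.31 without 2 days replicate 1 and 1.22 without replicate 3. Serpina3n, an acute phase protease inhibitor, read 8.21, 8.29 and 8.59 units and then 9.17, 9.03 and 9.14 units, a difference of 0.75 ± 0.66. Ceruloplasmin, Cp, had a difference of -0.92 ± 0.30 units. Müller glia genes had a median of -0.26 over 11 genes, with differences of 0.92 ± 0.42 units for Aqp4, a water channel, and of -1.25 ± 0.42 for Car14, a carbonic anhydrase, neither of them called. Over 18 genes of endothelium and pericytes the median difference was 0.02 units, with 10 positive and 8 negative, and none was called. At an unadjusted p under 0.05 in limma 4 were higher, against 3.3% of all probes, and 1 was lower, against 4.17%. One of the list, Tek, an endothelial receptor, had a difference of 0.60 ± 0.20 units from a level of 6.66 to 6.84 in the controls, at the floor of the array. Crym, which encodes a thyroid hormone-binding protein, read 13.37, 13.12 and 13.03 units and then 14.09, 14.12 and 13.87 units, a difference of 0.85 ± 0.41. Bcl2a1a, an inhibitor of apoptosis, read 6.89 to 7.11 units in the controls and 6.96 to 7.25 after crush. Actb, a common reference gene, differed by -0.08 ± 0.26 units at its brightest probe, whereas a dimmer probe read 12.82 to 12.88 units in the controls and 13.82 to 14.91 after crush.

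Genes of the lens, which is not part of the retina, varied more than any other list and did so within the groups. The median difference of 12 crystallins was -2.82 units, none was called, and in none did the groups separate. Crybb2 read 13.52, 15.04 and 21.82 units in the controls and 13.39, 8.40 and 16.67 units after crush. Cryaa read 9.33, 12.45 and 18.55 and then 8.32, 6.86 and 14.45 units. Control replicate 3 was the highest in both, and it read 17.19 units for the lens fibre protein gene Mip, against 7.29 to 10.14 in the other 5. Without it the median over the crystallins was -0.59 units, and without 2 days replicate 3 it was -4.06. The other crush arrays of the study also differed in Cryaa: the arrays labelled DBA/2J 2 days replicates 2 and 3 read 14.71 and 11.82 units and replicate 1, which reads as C57BL/6J, 7.89. Markers of pigment epithelium, striated muscle, oligodendrocytes and red cells had medians between -0.03 and 0.16 units and no called gene.

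**Figure D5:**
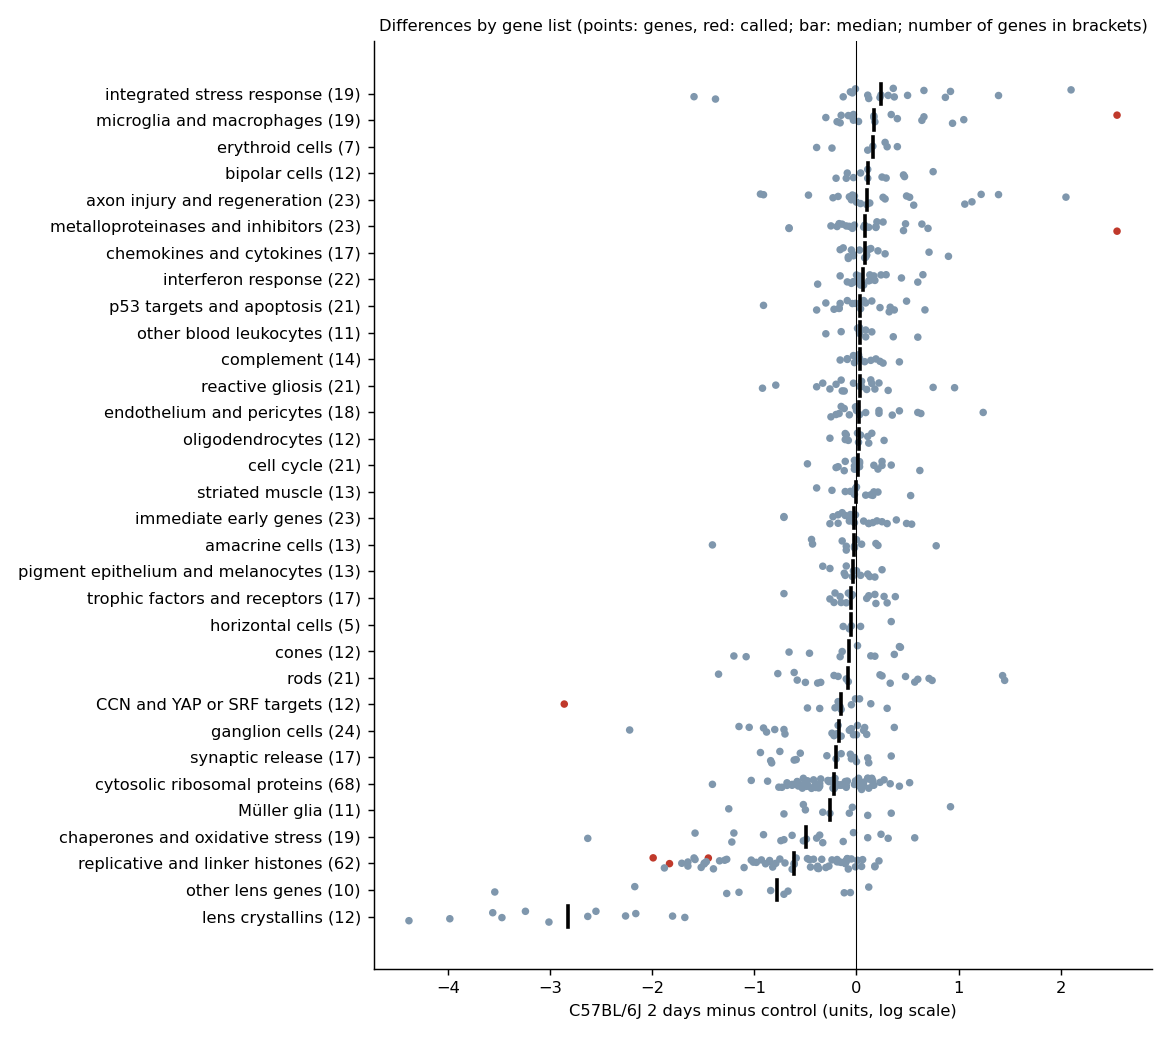
Difference between 2 days after crush and control (units, log scale) for the genes of 32 lists, with the median of each list as a black bar and the number of genes in brackets; red points are called genes. Lens crystallins, with a median of -2.82, and histones, with -0.61, lie at the lower end and the medians of most other lists lie near 0.

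The largest differences were also ranked regardless of the test. Among the 12 largest differences below the controls, without overlap, 7 were probes that were low in 2 days replicate 1 against all 17 other arrays. Clk1, a kinase of splicing factors, read 13.24, 13.02 and 13.02 units in the controls and 6.64, 11.66 and 12.10 after crush. Its difference was -2.96 units, and -1.21 without that array. Eif4g2, a translation initiation factor, read 6.95, 10.01 and 10.41 units after crush, and Sptbn1, a spectrin, 6.99, 9.60 and 9.66. Eif4g2 has a brighter probe with a difference of 1.07. Erdr1 was not among the 7: it read 14.35, 12.97 and 14.10 units in the controls and 10.50, 12.13 and 11.75 after crush, and its difference was -2.35 ± 0.49 (limma adjusted p = 0.125). Among the 12 largest differences above the controls were, beside Mmp12, Chac1, Sox11 and Zc3h6, the mitochondrial fission gene Fis1 (1.70 ± 0.45 units) and Unc119, a photoreceptor trafficking protein (1.65 ± 0.49 units). Neither was called.

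The change in DBA/2J retinas over the same time, which uses its own controls, was set beside that of C57BL/6J. The difference between the strains in the change at 2 days was tested for every probe, and 0 probes (0% of all) passed, with 1910 (4.14%) at an unadjusted p under 0.05; on the 16 arrays without the 2 that read as the other strain 0 passed as well. DBA/2J itself had 0 called probes at 2 days and 2945 (6.39%) at an unadjusted p under 0.05. Mmp12 read 6.91 to 7.17 units in the DBA/2J controls and 9.02, 10.08 and 8.98 after crush. Its change was 2.32 units there against 2.55, and the test of the difference gave 0.23 ± 0.44 units. Sox11 changed by 1.46 units in DBA/2J against 2.05, and Chac1 by 2.70 against 2.10. Each of these changes includes an array that reads as the other strain. Without 2 days replicate 3 the C57BL/6J changes were 2.45 units for Sox11 and 2.67 for Chac1. In DBA/2J Chac1 read 7.64 to 7.76 units in the controls and 10.98, 10.00 and 10.21 after crush. The highest of these is the array that reads as C57BL/6J, so which strain changed more at Chac1 is not settled. Ccn2 had the widest gap of the called genes. It read 11.07, 10.53 and 10.69 units in the DBA/2J controls and 10.93, 10.08 and 10.07 after crush, a change of -0.40, so that the changes differed by -2.46 ± 0.51 units (unadjusted p = 0.000211, adjusted p = 1 in limma). H2ac11 changed by -0.43 units in DBA/2J, from controls at 13.41, 13.93 and 13.55 to 13.69, 12.93 and 12.98, where the first value is the array that reads as C57BL/6J and the other 2 lie below those controls. That difference between the strains was -1.56 ± 0.33 (unadjusted p = 0.000261, adjusted p = 1 in limma). The histone list as a whole had a median of -0.30 units in DBA/2J, where 51 of 62 genes had a negative difference, 18 lay below the DBA/2J controls in all 3 arrays (7.73% of all probes did) and 1 lay above (4.33%). In C57BL/6J 56 of 62 were negative.

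The later C57BL/6J retinas were compared with the 2-day ones directly, without the controls. 14 probes (0.0304%) were called between 5 and 2 days, 10 higher at 5 days (0.0217%) and 4 lower (0.00867%), and 0 were called on the 16 arrays without the 2 that read as the other strain. None of the 9 genes called at 2 days was among them: Mmp12 differed by 0.55 units between the times, Ccn2 by 0.14 and H2ac11 by 0.41. H2ac13 differed by 0.31, H2ac20 by -0.07, Ghitm by -0.07 and Nfat5 by -0.03. H3c2 differed by 0.82 ± 0.21 and Zc3h6 by -0.67 ± 0.20 units, both back toward the control level. In limma their unadjusted p-values were 0.00141 and 0.00426 and their adjusted p-values 0.202 and 0.286. At an unadjusted p under 0.05 there were 4698 of the 46116 probes (10.2%), 2255 higher and 2443 lower at 5 days. Edn2, an endothelin, read 9.56 to 9.84 units in the controls and 10.26, 9.59 and 9.12 units at 2 days, and it was higher by 4.01 units at 5 days (limma adjusted p = 0.0263). Gal, the galanin gene, was between 6.89 and 7.12 units in the controls, between 7.00 and 7.67 at 2 days, and higher by 3.15 units at 5 days. Calb2, the calretinin gene of amacrine and ganglion cells, read 14.94, 15.55 and 15.27 units at 2 days, below the controls at 15.63 to 15.74, and its difference between 5 and 2 days was -1.80 units. Interferon response genes had a median difference of 0.06 units at 2 days over 22 genes, with none at an unadjusted p under 0.05, and of 1.41 between 5 and 2 days, where 14 of the 22 had an unadjusted p under 0.05 and were higher. Ganglion cell genes had a further median difference of -0.41 units between 5 and 2 days, and 2 of the 24 were called, both lower: Rbpms, which was at 10.58, 11.19 and 11.42 units at 2 days, and Nrn1, a neurite growth factor, which was at 13.26, 12.32 and 12.15.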

How the data were processed

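Total RNA was labelled with the Illumina TotalPrep kit and hybridised to Illumina Sentrix Mouse-6 V1.0 BeadChips; 3 BeadChips were used, and which array lay on which is not given in the sources used here, so a BeadChip block could not be fitted. The authors deposited a table of bead intensity per probe, not normalized and with no background correction stated, and a table of scores, 2z + 8 of the log2 intensity. The deposited intensities of all 18 arrays were rescaled to 2z + 8 here, and for 99.7% of probes the result was within 0.02 units of the deposited score on every array. Median intensity was 149.0 to 210.4 on the 6 arrays; the number of arrays limits the precision. Gene symbols came from the platform annotation, 29476 of 29534 updated through gene ID to RefSeq (GRCm38.p6). Probes were fitted with limma 3.58.1 in R 4.3.3 (12 residual degrees of freedom, 1 mean per group), p-values were adjusted by Benjamini-Hochberg over all 46116 probes, and 0.03 was the threshold. SAM was computed over all arrangements of the 6 arrays. The limma fit was tested on simulated data for this comparison over 46116 probes, with independent normal noise and no array that stood apart. Changes of 1, 2 and 4 units, 66 of each, were placed only in probes above the median level. The fit recovered 59.1%, 80.3% and 98.5% of them. The share recovered on the real arrays, several of which stood apart, is not known from this.

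Genes were named where called, where they were among the 12 largest differences each way without overlap, where they were among the 4 smallest p-values of a list or in a list of 15 genes or fewer, or where the study measured them by qRT-PCR; the few others were chosen after their values were seen. A list gene stands by its brightest probe. Members and lists were chosen with earlier results of these data known. Same-numbered control and 2-day arrays deviated together (r = 0.48, 0.42 and 0.27), and no source says what the numbers share. The alternatives were quantile normalization, background correction, the scores, brighter probes, an intensity trend, the replicate block, fewer arrays and each array left out.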

Additional observations from a re-analysis of the deposited data

How the results depend on the processing

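The 9 called probes became 14 after quantile normalization, 14 with the replicate block, 3 with an intensity trend and 135 by SAM; the 6 arrays alone gave 0. Leaving out 1 array gave between 0 and 23. The settings with 9, 9 and 7 calls were background correction with quantile normalization, the deposited scores and the brighter probes alone, 10 came from the 16 arrays, and 12 from a threshold of 0.05. The 14 probes called between 5 and 2 days became 0 on those 16 arrays, and were 15 after quantile normalization. The strain difference stayed at 0 in both alternatives run. The cause was not tested in any of these. Over 59 of the genes named in the text, at 1 probe each, none of 825 recomputed differences changed sign. Of these, 68 of 9 genes lost the call and 13 of 6 genes gained it. The 59 are not all genes of the text, and some outside them did change sign. Without 2 days replicate 3, the 2-day difference of Nrn1 went from -0.06 to 0.16 units and that of Edn2 from -0.03 to 0.24. The brighter probes, the intensity trend, the replicate block and the 6 arrays alone leave the difference itself unchanged, so no sign could change there. Nor could it on leaving out 1 array where the groups did not overlap. For Actb a dimmer probe was counted. Its brightest probe, at -0.08 units, was at 0.07 (log2) after quantile normalization and at 0.20 units without 2 days replicate 3. Beside the counts given above, the replicate block took the call from Nfat5 and gave it to Sox11 and H2bc21. Probes near 7 units lie at the floor of the array, and with 3 arrays a group precision is limited throughout.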
